A study of Homo sapiens with 12 samples.

Results

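The 9 genes described here are PPARG and PPARD, which encode nuclear receptors of the PPAR family, and 7 genes of fatty acid handling that are known PPAR targets or enzymes of fatty acid oxidation (PDK4, CPT1A, ANGPTL4, PLIN2, FABP1, ACADM and ACADVL). They were chosen by name, with earlier results of these data known. Matched by symbol to the Ensembl IDs of the count table, all 9 were found among 60675 IDs. Of them, 8 had enough reads for the test across 15374 genes. The exception was ANGPTL4. The cells were HT29, a human colorectal adenocarcinoma line, treated for 24 h in growth medium. They received vehicle or the water extract of Aconitum carmichaeli Debeaux (ACD) at 20, 100 or 500 µg/mL, called the low, the medium and the high dose. Vehicle was phosphate-buffered saline with 2% DMSO. As it was added to growth medium, DMSO around the cells was below 2%. The study's methods say that the extract was dissolved in the same saline with 2% DMSO. Each of the 4 groups had 3 libraries of messenger RNA, and the line is the only cell model of this series.

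PPARs are receptors that bind fatty acids and related lipids, pair with a retinoid X receptor (RXR) and sit on DNA at direct repeats of a short half-site, from which they raise transcription of genes for the uptake, storage and burning of fat. PPARG is the adipocyte receptor and is also abundant in the colonic epithelium, where it is linked to differentiation, whereas PPARD is present in most tissues. In fatty acid oxidation, CPT1A lets long-chain fatty acids into the mitochondrion, ACADVL and ACADM then carry out the first dehydrogenation of very-long-chain and medium-chain acyl-CoA, and PDK4 slows the use of glucose carbon by inhibiting pyruvate dehydrogenase.

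The libraries held between 15941255 and 33866644 expected counts, the reads per gene as RSEM estimates them. Values below are CPM (counts of a gene relative to the depth of its library, scaled with TMM factors) unless stated, a log2 fold change is followed by its standard error (SE), and "passed" means an adjusted p under 0.05 by edgeR's quasi-likelihood test with Benjamini-Hochberg adjustment over all genes tested. High-dose replicate 2, the shallowest library, stood apart: its log2 values scattered around the other 2 libraries of its group with an SD of 0.502, against 0.102 to 0.293 in the other libraries. Results whose call it changes are therefore given also without it. Leaving it out raised the number of all genes passing at the high dose from 887 to 2934. A pass gained without it was thus frequent among all genes. The 10 colon epithelial markers summed to 10960 to 13150 CPM in every library with none at 0, and the 10 markers of other cell types summed to 3.04 to 4.73 CPM, with COL1A2, APOA2 and ADIPOQ at 0 counts in all 12 libraries. The first sum rests mostly on the keratins, and 1 of these markers rose at the high dose with PPARG and ACADVL, CEACAM5, a surface glycoprotein, from 6.12 ± 0.806 to 9.82 ± 1.64 CPM (SD, n = 3; log2 fold change 0.7, adjusted p = 0.0132). CDX2, an intestinal transcription factor, rose across the dose order (slope 0.14, adjusted p = 0.0244), and VIL1, the brush border protein villin, was lower at the high than at the low dose (-0.26, adjusted p = 0.0479). These 3 were named after their values were seen, and their part in the results below was not tested. Nothing in the sources says that the replicates came from separate cultures, so p-values measure the spread between these libraries. In such bulk samples, a change in the share of cells that express a gene and a change in each cell cannot be told apart.

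For members with the half-site AGGTCA near a start, the 250 bases before the RefSeq start (GRCh38.p14, written 5′ to 3′ on the strand of the gene) are printed, since it is the unit of the sequence that PPARs bind. There were 2 such members, PPARG, the receptor that passed the test, and FABP1, one of the target genes. Capitals mark the half-site, which reads TGACCT where it lies on the opposite strand. For PPARG the window of the most upstream of its starts is shown, chr3:12287118-12287367 on the plus strand.

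PPARG: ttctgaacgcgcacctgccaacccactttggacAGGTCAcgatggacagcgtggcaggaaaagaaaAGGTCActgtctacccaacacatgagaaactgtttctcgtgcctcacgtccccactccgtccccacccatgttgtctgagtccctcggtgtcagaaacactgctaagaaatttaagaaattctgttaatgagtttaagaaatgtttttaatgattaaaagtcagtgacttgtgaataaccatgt

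FABP1: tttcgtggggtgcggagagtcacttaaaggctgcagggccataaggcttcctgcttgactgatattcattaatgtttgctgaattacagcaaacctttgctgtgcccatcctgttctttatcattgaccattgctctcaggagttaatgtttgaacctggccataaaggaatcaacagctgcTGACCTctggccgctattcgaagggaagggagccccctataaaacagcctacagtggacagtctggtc

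The FABP1 window is chr2:88128063-88128312 on the minus strand. The PPARG window held 2 half-sites, starting 217 and 184 bases before the start, and the FABP1 window held 1, starting 68 bases before it. Of all 35116 RefSeq promoters of this length, 12.1% held the half-site on either strand. That share is per window. As 7 of the 9 members had 1 window and PPARG had several, the count of members cannot be set against it. The full direct repeat AGGTCANAGGTCA was found in 0.0171% of all promoters and its relaxed form AGGNCANAGGNCA in 0.268%, and neither was in any of the 15 windows of the 9 members. One more half-site lay in 2 overlapping PPARG windows of inner starts, which hold exons and are not printed. A repeat that departs from these letters would be missed, so a window without a match may still hold a PPAR site. These matches describe letters only, and binding was not measured.

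With vehicle, the level per kilobase of exon differed widely among the members. In vehicle libraries ACADVL stood highest at 30.9 CPM per kilobase, followed by CPT1A at 16.1, PPARG at 7.04 and PPARD at 5.91. ACADM (1.95), PLIN2 (1.63), PDK4 (1.18) and FABP1 (0.73) were lower, and ANGPTL4 was near the limit of detection at 0.0215 CPM per kilobase. The exon length is the union over all annotated transcripts, which understates genes with long rare exons. On this scale ACADVL, CPT1A and both receptors stood above the medium-chain enzyme ACADM and the other 4 target genes. ACADM and PPARG had the longest unions, 13774 and 11981 bases, against 4457 for PPARD. In vehicle CPM without length, ACADM had 26.9 and PPARD 26.3, so their order depends on the length used.

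At the high dose 2 of the 8 members tested rose, PPARG and ACADVL, both by 1.3-fold, and none fell. Over all genes 5.77% passed at this dose and 2.82% passed as higher. The other 6 members had log2 fold changes between 0.11 and 0.46 that did not pass. The median log2 fold change was 0.307 over the members and 0.005 over all genes tested, and all 8 members lay above 0, as did 51.0% of all genes. The members were chosen with earlier results of these data known. Such contrasts with all genes, here and at the other doses, therefore describe the members and are not tests. The 3 doses are set against the same vehicle libraries, so their values are not independent of each other.

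**Figure D1:**
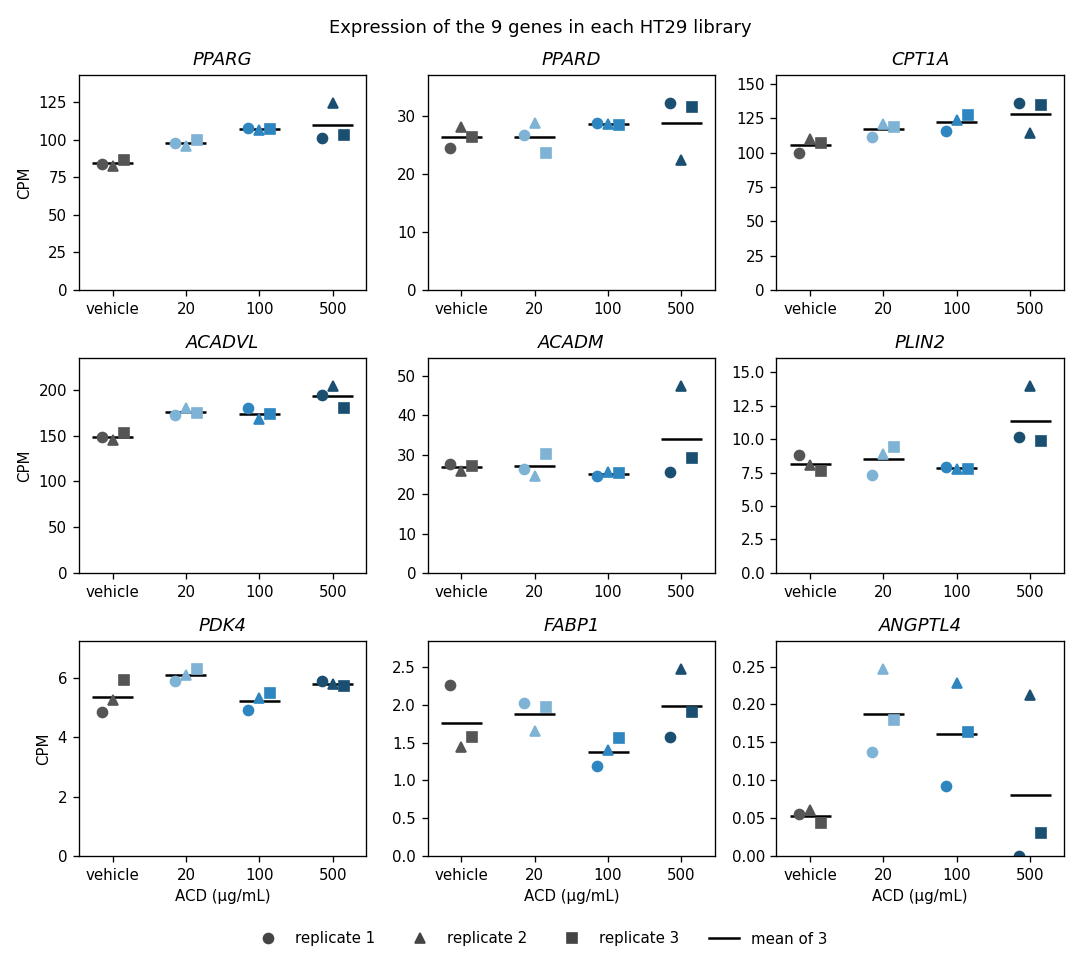
CPM (y axis, from 0) of each of the 9 genes in every library, by group (x axis, vehicle or µg/mL of ACD); marker shapes are replicates 1 to 3 and bars are means of 3. PPARG and ACADVL lay above every vehicle library at each dose, and high-dose replicate 2 (triangle) sat far from the other 2 libraries for ACADM, PLIN2 and PPARD.

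PPARG (ENSG00000132170, chr3:12287368-12434356 in GRCh38, plus strand) had 83.9, 82.5 and 86.6 CPM in the vehicle libraries. With 20 µg/mL it had 97.8, 95.9 and 100.2 CPM, with 100 µg/mL 108.1, 106.5 and 107.6, and with 500 µg/mL 101.6, 124.7 and 103.6. Every treated library lay above every vehicle library, and the medium-dose libraries lay above the low-dose ones. High-dose replicates 1 and 3 lay below every medium-dose library, and only replicate 2 lay above them. Against vehicle the log2 fold change was 0.22 (SE 0.08, adjusted p = 0.482) for the low, 0.35 (SE 0.08, adjusted p = 0.0594) for the medium and 0.38 (SE 0.08, adjusted p = 0.0129) for the high dose. Only the last of these passed. Without high-dose replicate 2, its log2 fold change was 0.28 with an adjusted p of 0.00108, and the low and medium doses passed as well (adjusted p = 0.0226 and 0.000186). The high-dose rise did not pass when edgeR saw only the vehicle and high-dose libraries (adjusted p = 0.19) or without vehicle replicate 2 (0.0655), and passed in the other 18 of 20 alternatives.

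PPARD (ENSG00000112033, chr6:35342558-35428191, plus strand), the receptor of wider distribution, had 24.5, 28.2 and 26.4 CPM in vehicle and 32.3, 22.4 and 31.6 CPM at the high dose. The second high-dose library lay below every vehicle library and the other 2 above them. The log2 fold change was 0.13 (SE 0.12, adjusted p = 0.622), with 1.96 SE on each side spanning -0.11 to 0.38, and was 0.27 (adjusted p = 0.0267) without high-dose replicate 2. At the low and medium doses it was 0.0 and 0.12 (adjusted p = 0.998 and 0.769). PPARD therefore passed only when that 1 library was left out.

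Beside the members stood PPARA, the other PPAR gene, and the partner receptors RXRA, RXRB and RXRG. Of these 4, 3 had enough reads and 0 passed at any dose by edgeR (0 at an unadjusted p under 0.05 against vehicle, 0 by DESeq2 on all libraries). Without high-dose replicate 2, PPARA (0.36, adjusted p = 0.00576) and RXRA (0.29, adjusted p = 0.00284) passed as higher at the high dose, and both passed at the medium dose as well (0.28, adjusted p = 0.0314, and 0.25, adjusted p = 0.00959). By DESeq2 on the vehicle and medium-dose libraries alone, their adjusted p was 0.0447 and 0.00204. The 10 coregulators, which carry the receptor's signal to the transcription machinery, had 9 tested and 0 passed at the high dose (0 at an unadjusted p under 0.05 and 0 by DESeq2), against 4 without that library. Over all genes, 2934 passed at this dose without that library, against 887 with it. Both lists had their values spread on either side of 0, from -0.11 to 0.12 for the receptors and from -0.18 to 0.23 for the coregulators.

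ACADVL (ENSG00000072778, chr17:7217125-7225266, plus strand), the very-long-chain acyl-CoA dehydrogenase of the inner mitochondrial membrane, had 148.2, 145.6 and 152.4 CPM in vehicle. With 20 µg/mL it had 172.9, 179.8 and 174.6 CPM, with 100 µg/mL 179.8, 168.1 and 173.4, and with 500 µg/mL 194.9, 204.5 and 180.2. All 9 treated libraries lay above all 3 vehicle libraries, and the low and medium doses overlapped each other. The log2 fold change was 0.24 (SE 0.07, adjusted p = 0.277) for the low, 0.22 (SE 0.07, adjusted p = 0.174) for the medium and 0.38 (SE 0.07, adjusted p = 0.00493) for the high dose, where it passed. It was 0.33 (adjusted p = 0.00048) without high-dose replicate 2. The rise at the high dose passed in 19 of 20 alternatives, the exception being edgeR on the 2 groups alone (adjusted p = 0.135). DLG4 overlaps ACADVL by 2717 bases on the opposite strand, with 138 counts over 12 libraries against 51380 for ACADVL.

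CPT1A (ENSG00000110090, chr11:68754620-68844410, minus strand), the gate for long-chain fatty acids, had 99.7, 110.0 and 107.1 CPM in vehicle and 136.4, 114.2 and 135.0 CPM at the high dose. The groups did not overlap, and the lowest high-dose value was again that of replicate 2. Group means were 105.6 ± 5.35 (SD, n = 3) in vehicle, 117.0 ± 4.9 at the low, 122.5 ± 6.19 at the medium and 128.6 ± 12.5 at the high dose. The high-dose log2 fold change of 0.28 (SE 0.08, adjusted p = 0.0643) did not pass, and it was 0.36 (adjusted p = 0.000573) without replicate 2. By DESeq2 on all libraries its adjusted p was 0.0148.

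ACADM (ENSG00000117054, chr1:75724431-75787575, plus strand), the medium-chain enzyme of the same step, had 27.6, 25.9 and 27.1 CPM in vehicle and 25.5, 47.5 and 29.1 CPM at the high dose. A single library carried the difference, since the log2 fold change was 0.33 (SE 0.18, adjusted p = 0.34) with replicate 2 and 0.03 (adjusted p = 0.823) without it. At the low and medium doses it was 0.02 and -0.09 (adjusted p = 0.992 and 0.881). ACADM and ACADVL thus had like fitted values at the high dose, 0.33 and 0.38, with very different spread between libraries.

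PLIN2 (ENSG00000147872, chr9:19108375-19149290, minus strand), which coats lipid droplets, had 8.81, 8.09 and 7.65 CPM in vehicle. With 20 µg/mL it had 7.35, 8.91 and 9.4 CPM, with 100 µg/mL 7.9, 7.8 and 7.78, and with 500 µg/mL 10.2, 14.0 and 9.9. The high-dose libraries lay above all others, and the lower doses overlapped vehicle. Its log2 fold change of 0.46 (SE 0.14, adjusted p = 0.0757) at the high dose, the largest of the members tested, did not pass, and it was 0.3 (adjusted p = 0.0587) without replicate 2. DESeq2 on all libraries gave an adjusted p of 0.0408.

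PDK4 (ENSG00000004799, chr7:95583499-95596516, minus strand), the kinase that switches off pyruvate dehydrogenase in fasting, had 4.84, 5.27 and 5.93 CPM in vehicle and 5.9, 5.8 and 5.72 CPM at the high dose. The high-dose libraries all lay inside the vehicle range. The log2 fold change was 0.11 (SE 0.1, adjusted p = 0.596), and 1.96 SE on each side spanned -0.08 to 0.31. At the low dose it was 0.19 (adjusted p = 0.68) and at the medium dose -0.03 (adjusted p = 0.938).

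FABP1 (ENSG00000163586, chr2:88122982-88128062, minus strand), the liver-type fatty acid binding protein that enterocytes also make, had 2.26, 1.45 and 1.58 CPM in vehicle and 1.58, 2.48 and 1.91 CPM at the high dose. The groups overlapped, and between 35 and 62 counts per library stood behind these values. The log2 fold change was 0.17 at the high dose (SE 0.22, adjusted p = 0.725), with 1.96 SE on each side spanning -0.25 to 0.59, and it was 0.03 (adjusted p = 0.941) without high-dose replicate 2.

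ANGPTL4 (ENSG00000167772, chr19:8363289-8374370, plus strand), a secreted inhibitor of lipoprotein lipase and a sensitive PPAR target in many cells, had 1, 2 and 1 counts in the vehicle libraries. With 20 µg/mL it had 4, 7 and 4 counts, with 100 µg/mL 2, 7 and 4, and with 500 µg/mL 0, 3 and 1. These counts were too low for the test. Per unit of depth, the summed counts at the low dose were 3.47 times those in vehicle (95% exact counting interval 1.11 to 14.4), at the medium dose 3.13 times (0.966 to 13.2) and at the high dose 1.07 times (0.2 to 5.76). The intervals cover counting error only. With no filter on low counts, edgeR gave the low dose a log2 fold change of 1.72 (SE 0.82, adjusted p = 0.837), which did not pass.

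**Figure D2:**
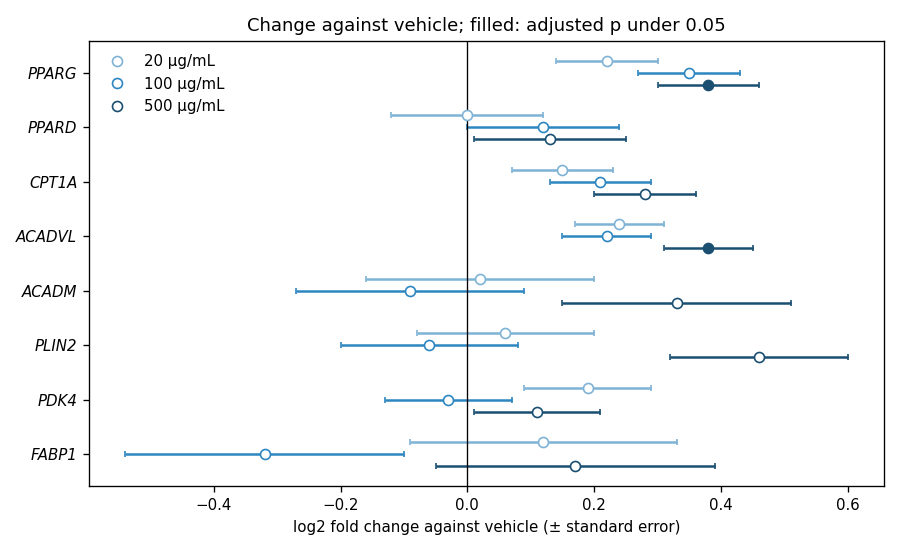
Log2 fold change against vehicle (x axis) of the 8 members tested (y axis) at 20, 100 and 500 µg/mL; bars are standard errors and filled points have an adjusted p under 0.05. The filled points are PPARG and ACADVL at the high dose, both at 0.38, and both genes lie above 0 at every dose.

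At the medium dose 0 of the 8 members passed by edgeR, although 3 had an unadjusted p under 0.05 (PPARG, ACADVL and CPT1A) and DESeq2 on all libraries passed 2 (PPARG and ACADVL). Over all genes 1.01% passed by edgeR and 11.7% had an unadjusted p under 0.05. The members' median log2 fold change was 0.043 and that of all genes -0.01, with 4 of 8 members above 0. Without high-dose replicate 2, which enters this comparison through the shared spread, 3 members passed, CPT1A being the other one (0.21, adjusted p = 0.0275). Calls over all genes also moved with the fit, from 59 to 1077 across alternatives, against 155 by edgeR on all 12 libraries. The gain among members was not set against all genes in the same fit.

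At the low dose 0 of 8 passed by edgeR, with 2 at an unadjusted p under 0.05 (PPARG and ACADVL). By DESeq2 on all libraries 1 passed (ACADVL, adjusted p = 0.0105). Of all genes, 0.124% passed by edgeR and 7.95% had an unadjusted p under 0.05. The members' median log2 fold change was 0.134, against -0.001 over all genes. Without high-dose replicate 2, 2 members passed, PPARG and ACADVL. For all genes, 10 to 318 passed across alternatives, against 19 by edgeR on all 12 libraries, and the share without that library is not given.

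The study's own rule for differentially expressed genes asks for a fold change over 1.5 as well, which 2.93% of all genes met at the high, 0.676% at the medium and 0.111% at the low dose. None of the 8 members met it at any dose by edgeR. An unadjusted p under 0.05 was reached by 4, 3 and 2 of them at the high, medium and low dose. The shares of all genes that reached it were 20.1%, 11.7% and 7.95%. DESeq2 without the fold rule passed 4, 2 and 1 members, and its shares over all genes are not given here.

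Tested directly against the low dose, the high dose gave 0 of 8 members passing by edgeR (1 at an unadjusted p under 0.05, 0 by DESeq2). Of all genes, 2.98% passed by edgeR and 15.4% had an unadjusted p under 0.05. Among the members PLIN2 had the smallest adjusted p, 0.171, at a log2 fold change of 0.39 (SE 0.14). PPARG was higher at the high dose by 0.17 (SE 0.08, adjusted p = 0.334) and ACADVL by 0.14 (SE 0.07, adjusted p = 0.347). Without high-dose replicate 2, PPARD (0.27, adjusted p = 0.0494) and CPT1A (0.21, adjusted p = 0.0403) passed. Calls over all genes ran from 95 to 1143 across alternatives, and the share without that library is not given.

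Across the order of the 4 groups, scored 0 to 3, 3 members passed with a rising slope, where 5.74% of all genes passed and 2.76% passed as rising. The slope per step on the log2 scale was 0.13 for PPARG (SE 0.03, adjusted p = 0.00906), 0.11 for ACADVL (SE 0.02, adjusted p = 0.0121) and 0.09 for CPT1A (SE 0.02, adjusted p = 0.0417). The slopes of PPARG and ACADVL passed in all 18 alternatives run, and that of CPT1A in 6 of 18. A slope that passed does not mean a rise at each step. PPARG exceeded its medium-dose libraries only in high-dose replicate 2, and ACADVL had means of 175.7 CPM at the low and 173.8 at the medium dose. When high-dose replicate 2 was left out, 4 members passed, PPARD being the other one (slope 0.09, adjusted p = 0.0234). Calls over all genes ran from 452 to 2744 across alternatives, against 882 by edgeR on all 12 libraries. The gain of PPARD was not set against all genes in the same fit. The trend uses the same libraries as the comparisons with vehicle.

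**Figure D3:**
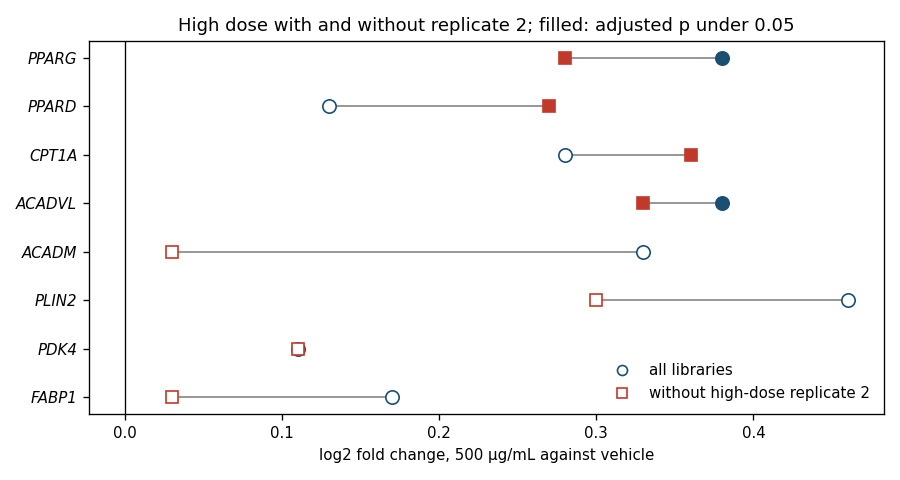
Log2 fold change at 500 µg/mL against vehicle (x axis) of the 8 members (y axis) with all libraries (circles) and without high-dose replicate 2 (squares); filled markers have an adjusted p under 0.05. PPARD and CPT1A gained a pass without the library, PPARG and ACADVL kept theirs, and ACADM moved from 0.33 to 0.03. Over all genes, the number passing rose from 887 to 2934 without it.

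The members did not move as 1 block across libraries. Over 12 libraries, Pearson's r of log2 CPM was 0.87 between PPARG and ACADVL and 0.82 without high-dose replicate 2. CPT1A and ACADVL had an r of 0.63 (0.81 without it). ACADM and PLIN2 had an r of 0.84 that was 0.41 without that library, and PPARD and ACADM had -0.68, or -0.47 without it. These are descriptions over libraries that share dose and scaling, and the labels name no batch. Among 10625 genes with a mean of at least 5 CPM, the genes most like PPARG over 12 libraries were MTMR2 (r = 0.953), KCTD9 (0.949) and RAP2C (0.948). Those most like ACADVL were PPP4R1 (0.933), ITGB7 (0.928) and the chemokine gene CXCL1 (0.924). Without high-dose replicate 2 all 6 kept an r of at least 0.907, although their places moved to between 8 and 48.

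The wider pathway was read from 9 lists holding 110 other genes, of which 92 were tested. At the high dose 3 rose and 1 fell, where 5.77% of all genes passed. The median log2 fold change of the 92 was 0.007, against 0.005 over all genes. Above 0 were 47 of the 92 (51.1%), and 51.0% of all genes. The 4 that passed were TXNIP, PDK1, PDK3 and KLF10. The count rests strongly on high-dose replicate 2: without it 24 of the 92 passed, as did 2934 of all genes. DESeq2 on all libraries passed 8, and edgeR fitted to vehicle and the high dose only passed 1.

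TXNIP, listed with PPAR targets and best known as a brake on glucose uptake, fell the most of these genes. The vehicle libraries had 54.3, 55.5 and 59.1 CPM. With 20 µg/mL the lowest and highest were 49.7 and 56.8 CPM, with 100 µg/mL 34.2 and 36.3, and with 500 µg/mL 16.6 and 28.6. The high and medium doses lay below vehicle with no overlap. The high-dose log2 fold change was -1.39 (SE 0.15, adjusted p = 0.000171), and it passed in 20 of 20 alternatives. It also passed for the high against the low dose, at -1.27 (adjusted p = 0.000476).

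The pyruvate dehydrogenase list held 7 tested genes, of which 2 rose at the high dose, both of them sister kinases of PDK4. Of all genes, 2.82% passed as higher at that dose. PDK1 had 23.0 ± 0.729 CPM in vehicle and 30.1 ± 0.993 at the high dose (SD, n = 3), and its log2 fold change was 0.39 (SE 0.07, adjusted p = 0.00605). PDK3 had 1.92 ± 0.0696 and 3.03 ± 0.252 CPM, and its log2 fold change was 0.66 (SE 0.13, adjusted p = 0.0129). The rise passed in 19 of 20 alternatives for PDK1 and in 15 of 20 for PDK3. In both, every high-dose library lay above every vehicle library, unlike PDK4. PDHA1, the catalytic subunit gene and the gene of this list with the most CPM (not per length), had 0.19 (adjusted p = 0.154). Whether PDK4 differed in response from PDK1 or PDK3 was not tested.

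KLF10, a zinc finger repressor counted with the PPAR targets, rose by 0.27 at the high dose (SE 0.07, adjusted p = 0.0417) from 40.9 to 49.6 CPM. It passed in 6 of 20 alternatives. UCP2, a mitochondrial carrier and the most abundant gene of that list in CPM, had 0.04 (adjusted p = 0.811). In all, 11 of the 21 other PPAR targets were tested, 1 rose, 1 fell and their median was 0.04. DESeq2 on all libraries passed 3, and 5 passed without high-dose replicate 2, among them PLIN4, a lipid droplet protein named after its values were seen, whose log2 fold change was 0.52 (adjusted p = 0.151) with that library and 0.74 (adjusted p = 3.54e-05) without it.

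None of the 16 tested mitochondrial beta-oxidation genes beside the members passed at the high dose by edgeR (1 at an unadjusted p under 0.05, 0 by DESeq2), and their median was 0.02. When high-dose replicate 2 was left out, 4 passed, ACADS, DECR1 and ETFB as lower (-0.42, -0.34 and -0.36) and ETFDH as higher (0.29), named after their values were seen. ECHS1, the hydratase and the most abundant of them in CPM, had -0.01 (adjusted p = 0.982). ETFDH, which passes electrons from the acyl-CoA dehydrogenases to ubiquinone, passed for the dose trend with a slope of 0.11 (adjusted p = 0.0417), and EHHADH, a peroxisomal enzyme, with a slope of -0.12 (adjusted p = 0.0417). The ETFDH slope passed in 7 and the EHHADH slope in 6 of 18 alternatives, and EHHADH too was named after its values were seen. The peroxisomal list had 0 of 14 passing at the high dose (2 at an unadjusted p under 0.05, 1 by DESeq2, and 2 without high-dose replicate 2), with HSD17B4, the most abundant in CPM, at 0.13 (adjusted p = 0.459).

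The carnitine shuttle beside CPT1A had 0 of 9 passing at the high dose by edgeR, with 0 at an unadjusted p under 0.05 and 0 by DESeq2, and a median of -0.11. ACACA, which makes the malonyl-CoA that inhibits CPT1A, was its most abundant gene in CPM and had -0.07 (adjusted p = 0.855). Of 19 tested genes of fatty acid uptake, activation and release, 0 passed at the high dose by edgeR. At an unadjusted p under 0.05 there were 8, 4 higher and 4 lower, and 20.1% of all genes reached that mark. Of the 19 genes, 2 passed by DESeq2 and 5 passed without high-dose replicate 2. ACSL5, the intestinal acyl-CoA synthetase and the most abundant of them in CPM, had 0.13 (adjusted p = 0.254). At the medium dose HILPDA, a lipid droplet protein that inhibits lipolysis and was named after its values were seen, fell by 0.44 on the log2 scale (SE 0.09, adjusted p = 0.0446), and it was the only one of the 92 to pass there by edgeR. This fall passed in 7 of 20 alternatives. Without high-dose replicate 2, HILPDA also passed as lower at the low dose (-0.34, adjusted p = 0.034) and the high dose (-0.3, adjusted p = 0.023). Of the 5 ketone body enzymes listed, 0 passed at the high dose by edgeR (0 at an unadjusted p under 0.05 and 0 by DESeq2), and BDH1, the most abundant in CPM, had -0.02 (adjusted p = 0.926).

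**Figure D4:**
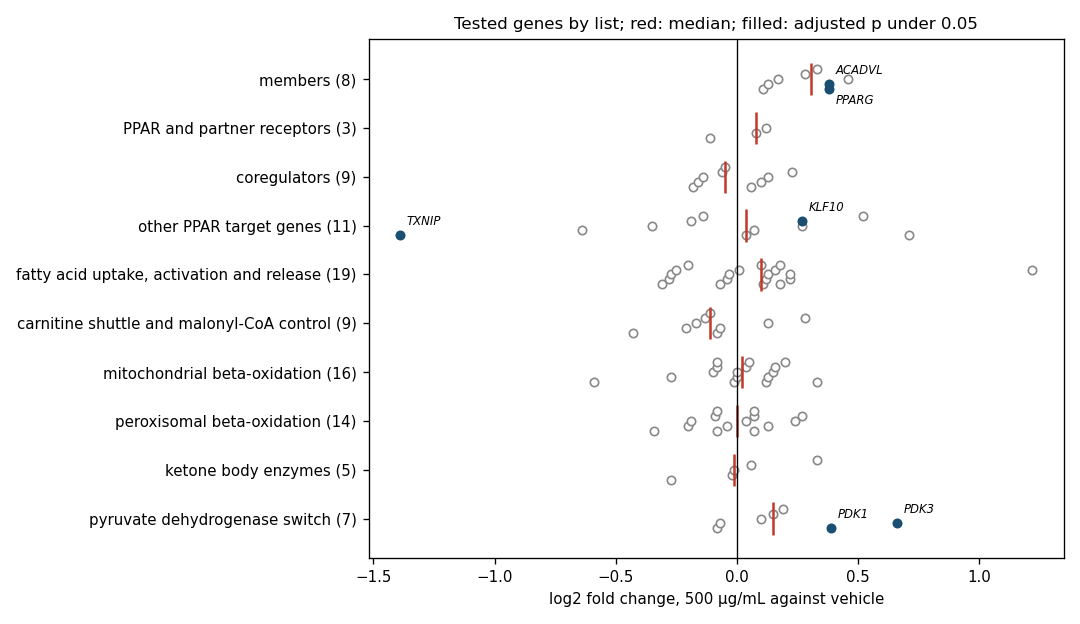
Log2 fold change at 500 µg/mL against vehicle (x axis) of every tested gene in the members' list and the 9 pathway lists (y axis, number tested in brackets); each point is a gene, filled where the adjusted p is under 0.05 and named, and red lines are medians. The members' median of 0.31 lies right of the medians of the other lists, and TXNIP is the named point left of 0. Members and lists were chosen with earlier results of these data known, so the order of medians is a description.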

How the data were processed

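All 12 libraries of HT29 cells were used. By the methods, the authors used Trim Galore on the reads, STAR for alignment and RSEM for expression, on GRCh38. The processing notes give Trim Galore 0.6.5, STAR 2.7.3a and RSEM 1.3.3, and the paper gives other versions of the first 2. The deposited values are expected counts of RSEM per gene, not normalized, and were rounded here. The library kit keeps strand, and RSEM's strand setting is not given in the sources used here. The longer treatment note names another herb, so groups follow the titles and the treatment field. Counts were tested with edgeR 4.0.16 in R 4.3.3 (filterByExpr, TMM, robust quasi-likelihood fit of all 12 libraries, 4 groups, Benjamini-Hochberg over 15374 genes), checked on simulated data. DESeq2 1.42.0, other filters, scalings and fits, and leaving out each library were the alternatives. SEs came from the F statistic, and the coefficient of variation beyond counting was 11.2%. No libraries were duplicates. The members and lists were chosen with earlier results of these data known. Named were all 9 members and, of each pathway list except receptors and coregulators, up to 4 genes passing at the high dose and the one with the highest mean CPM. Positions are from GENCODE 44 and promoters from RefSeq, GRCh38. A gene was left out of the lists and their counts and is not reported here.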

Additional observations from a re-analysis of the deposited data

How the results depend on the processing

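Over 784 values of single members under alternatives, 730 kept direction and side of the threshold, 21 newly passed, 15 no longer passed and 18 changed sign. The number of members passing at the high dose, 2, was 4 by DESeq2 on all libraries, 0 by edgeR on the 2 groups alone, 0 with the fold rule, and 1 to 4 on leaving out 1 library (1 without vehicle replicate 2, 4 without high-dose replicate 2). At the medium dose, 0, it was 2 by DESeq2 on all libraries, 2 by edgeR and 3 by DESeq2 on the 2 groups alone, and 0 to 3 on leaving out 1 library. At the low dose, 0, it was 1 by DESeq2 on all libraries or the 2 groups alone, and 0 to 2 on leaving out 1 library. For the high against the low dose, 0, leaving out 1 library gave 0 to 2. The upper values of these 3 ranges are without high-dose replicate 2. DESeq2 on the 2 groups alone was chosen after seeing the data. The cause of these moves was not tested.

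None of the sign changes was in a value that passed. PPARD at the low dose was -0.00089 by edgeR on the 2 groups alone and from -0.06 to 0.07 on leaving out 1 library. In the same way the low-dose log2 fold change ran from -0.01 to 0.16 for PLIN2, from -0.02 to 0.31 for FABP1 and from -0.07 to 0.08 for ACADM, that of PDK4 at the medium dose from -0.09 to 0.05, and that of FABP1 for the high against the low dose from -0.1 to 0.19. The slopes ran from -0.01 to 0.03 for PDK4, from -0.05 to 0.06 for FABP1 and from -0.01 to 0.12 for ACADM. Over all genes, the number passing across alternatives ran from 181 to 2934 at the high, 59 to 1077 at the medium and 10 to 318 at the low dose, from 95 to 1143 for the high against the low dose and from 452 to 2744 for the trend. Of the 92 other pathway genes it ran from 1 to 24, 0 to 8, 0 to 2, 0 to 7 and 2 to 23 in the same order, the 24 being without high-dose replicate 2.

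Same-numbered libraries of different groups correlated at -0.495 to 0.372 in their deviations from the group means (5 of 18 pairs over 0.1). Pairs with different numbers ran from -0.536 to 0.541 (14 of 36 over 0.1). The values cannot decide whether same-numbered libraries were handled together. The largest were of high-dose replicate 2 with vehicle replicate 1 (0.541) and with low-dose replicate 3 (0.538), and their source was not tested. With the replicate number as a block, 2 members passed at the high dose, and the CPT1A slope no longer did (adjusted p = 0.0689). FABP1 and ANGPTL4 were limited by depth, with at most 62 and 7 counts in a library.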
